A study of Rattus norvegicus with 10 samples.

Results

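The genes described here are markers of the choroid plexus epithelium, followed in the brain of single rats after a short inhalation of an odorant. They were chosen by symbol from 10 listed markers: Ttr, Kl, Folr1, Kcne2, Sostdc1, Otx2, Aqp1, Clic6, F5 and Slc4a5. Every probe set of the array that the platform annotation assigns to just one of these genes was taken. This gave 12 of 31042 probe sets, for 8 of the 10 genes. Ttr, Kl, Folr1, Sostdc1 and F5 had a single probe set each, Otx2 and Aqp1 had 2, and Kcne2 had 3. No probe set was assigned to Clic6 or Slc4a5 in the annotation used, and both were not analysed here.

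RNA was taken from right brains, cut along the midline, of 10 male Wistar rats aged 7 weeks, with 1 array per rat. The control group (n = 5) breathed vapor from distilled water for 5 min, and the DMHF group (n = 5) breathed vapor of DMHF, a dimethyl-hydroxy-furanone and food aroma compound, for the same time. In both groups air was pumped through a flask with 5 mL of liquid, the rats were killed 10 min after inhalation, before the dark period of the day, with an inhaled concentration not given in the sources used here. Neither the ventricles nor the amount of choroid plexus left in a divided brain is stated.

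The choroid plexus is a frond of vascular tissue in the brain ventricles, covered by a single layer of epithelial cells that secrete cerebrospinal fluid. Its epithelium pumps ions and water, carries hormones and vitamins between blood and fluid, and holds very high levels of a few transcripts, Ttr above all. In a piece of brain these transcripts come from a small part of the tissue. In such bulk samples, fewer cells of a type and less RNA per cell cannot be told apart.

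The deposited values are on a log2 scale of expression, but they differ between arrays only by millionths of a unit. Differences are therefore given in millionths of a log2 unit as deposited, and are not fold changes of RNA. They are comparable between rats for a given probe set, and sizes are not compared between probe sets. Beside each stands its size in SD within groups, pooled over both groups for that probe set. Array medians differed by 15.2 millionths at most, the median over probe sets of the SD between the 10 arrays was 2.20 millionths, and 0 pairs of arrays held identical values.

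The upstream sequence is shown for markers whose levels followed one another between rats. Of the 10 markers, 5 had an entry in the RefSeq-derived promoter table of rat build GRCr8, and the 3 of them whose levels followed one another most closely, Ttr, F5 and Kl, are printed. Each run holds the 250 bases before the annotated start, 5′ to 3′ on the + strand, at chr18:12218508-12218757 (Ttr), chr13:79046407-79046656 (F5) and chr12:5325753-5326002 (Kl). Capitals mark TAATC, the core of the sequence that homeodomain proteins of the Otx class bind, searched on both strands (GATTA on the other).
Ttr: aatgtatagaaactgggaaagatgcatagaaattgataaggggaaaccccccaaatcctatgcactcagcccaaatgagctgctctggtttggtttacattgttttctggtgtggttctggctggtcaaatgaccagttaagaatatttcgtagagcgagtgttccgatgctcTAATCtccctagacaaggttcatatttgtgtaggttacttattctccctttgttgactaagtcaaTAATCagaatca
F5: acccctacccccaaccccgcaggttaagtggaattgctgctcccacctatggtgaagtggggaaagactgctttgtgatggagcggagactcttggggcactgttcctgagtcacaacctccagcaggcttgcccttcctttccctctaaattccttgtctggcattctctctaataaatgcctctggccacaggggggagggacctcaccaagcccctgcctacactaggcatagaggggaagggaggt
Kl: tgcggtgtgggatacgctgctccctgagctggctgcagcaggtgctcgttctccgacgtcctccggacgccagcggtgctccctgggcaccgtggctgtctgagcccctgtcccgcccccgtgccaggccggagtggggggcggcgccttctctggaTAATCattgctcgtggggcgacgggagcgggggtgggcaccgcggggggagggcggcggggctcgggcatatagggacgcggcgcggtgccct
The Ttr window held 2 matches, starting 77 and 12 bases before the start, the Kl window held 1, starting 93 bases before it, and the F5 window held 0. Windows of Aqp1 and Slc4a5 held 0 as well. Of all 33469 windows of this length in the table, 20.5% held TAATC, and 6.34% held the longer TAATCC, which contains it and was found in 0 of the 5 marker windows. The windows differed in base composition, with 40.4% G and C for Ttr, 56.0% for F5 and 73.2% for Kl. A match is only a run of letters, and no binding was measured.

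No choroid plexus marker passed the test between DMHF and control rats. By limma with Benjamini-Hochberg adjustment over all 31042 probe sets, 0 of the 12 marker probe sets reached an adjusted p under 0.05 in either direction, where the share of all probe sets called was 0% in either direction. At an unadjusted p under 0.05, 1 of 12 was higher, Folr1, against 3.23% of all probe sets higher and 2.25% lower. The mean of the DMHF rats was above that of the control rats for 11 of 12 marker probe sets, where 53.2% of all probe sets had a higher mean in DMHF. The median difference of the 12 was 0.757 SD within groups, against 0.0528 over all probe sets. For 0 of 12 did all 5 DMHF rats lie above all 5 control rats, a pattern shown by 0.535% of all probe sets, and for 0 of 12 did all 5 lie below, against 0.332%. Since the markers follow one another between rats, these 12 values are not independent of each other. The markers were also chosen with earlier results of these data known, so their shared direction is a description.

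**Figure D1:**
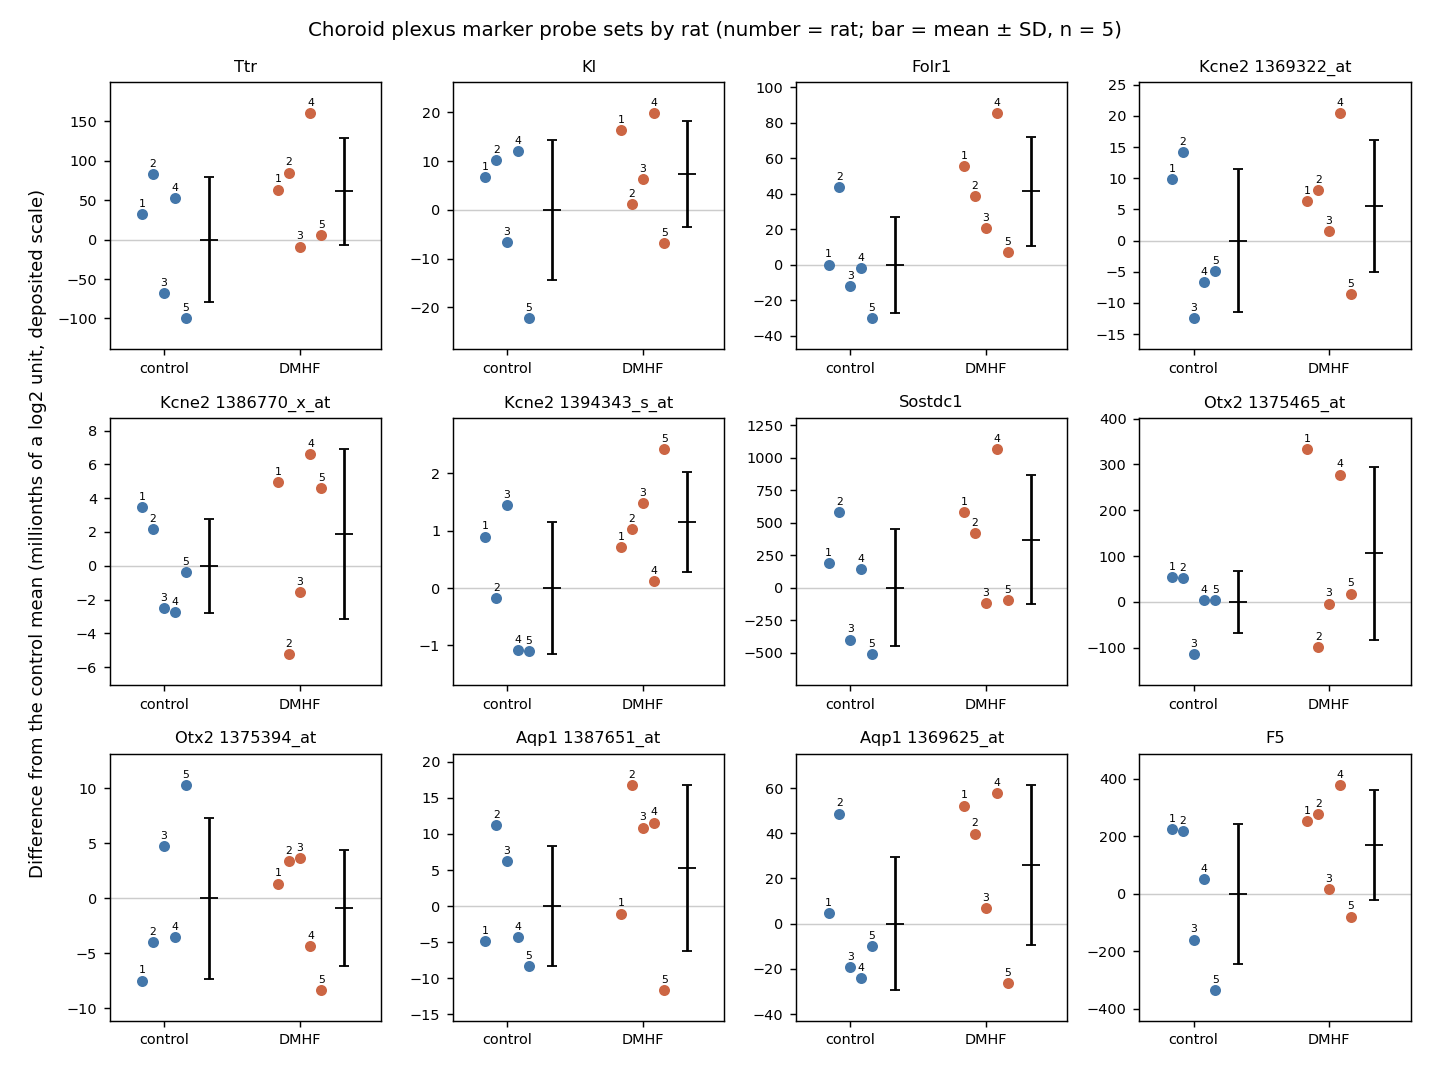
Values of the 12 marker probe sets, 1 panel each, as the difference from the control mean in millionths of a log2 unit (y axis), for control and DMHF rats (x axis). Points are rats with their number and the black bars are the group mean ± SD (n = 5). The groups overlap in every panel, and DMHF rat 4 is the highest point in 8 of 12.

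Among the proteins that carry molecules into the cerebrospinal fluid, Ttr encodes transthyretin, which binds thyroid hormone and the retinol-binding protein. Relative to the control mean, Ttr stood at 32.5, 82.8, -67.9, 52.5 and -100.0 millionths in control rats 1 to 5, and at 63.5, 85.1, -8.75, 160.6 and 6.10 in DMHF rats 1 to 5. Control rats 3 and 5 were the lowest and DMHF rat 4 the highest, and only 2 DMHF rats lay above the highest control. The DMHF mean was higher by 61.3 millionths (SE 44.4), or 0.830 SD within groups (limma adjusted p = 0.975). The SD between rats was 79.5 millionths in control and 67.8 in DMHF.

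Folr1, the folate receptor that moves folate across the epithelium into the fluid, had the smallest p of the markers. It stood at 0.155, 43.6, -12.0, -1.64 and -30.2 millionths in control rats 1 to 5 and at 55.5, 38.8, 20.7, 85.5 and 6.96 in DMHF rats 1 to 5. All 5 DMHF rats lay above the control mean, but only 2 lay above control rat 2, the highest control. The difference was 41.5 millionths (SE 17.4), or 1.43 SD within groups, with an unadjusted p of 0.0417 and an adjusted p of 0.893 by limma. An exact two-sided permutation test over all assignments of rats to the groups gave p = 0.0556 (adjusted p = 0.921 over all probe sets). With quantile normalization of the arrays the difference was 9.56 millionths (limma adjusted p = 0.829).

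Of the secreted regulators and enzymes, Sostdc1 encodes an antagonist of BMP and Wnt ligands, F5 is coagulation factor V, and Kl is klotho, a co-receptor of a fibroblast growth factor that is also shed into the fluid. Sostdc1 stood at 191, 579, -399.5, 142 and -512.3 millionths in control rats 1 to 5, and at 585, 418, -121, 1068 and -98.4 in DMHF rats 1 to 5. F5 stood at 225, 218, -159, 50.3 and -335 in control rats and at 252.3, 276, 17.05, 379 and -79.7 in DMHF rats, in the same order. Kl stood at 6.76, 10.1, -6.61, 12.0 and -22.2 in control rats and at 16.3, 1.23, 6.28, 19.8 and -6.90 in DMHF rats. As for Ttr, the lowest of the 10 rats was control rat 5 and the highest was DMHF rat 4 for all 3 of these genes. The groups overlapped for each of them. The DMHF means were higher by 370 millionths (SE 286), or 0.778 SD within groups, for Sostdc1, by 169 (SE 132), or 0.769 SD, for F5, and by 7.34 (SE 7.69), or 0.575 SD, for Kl. The limma adjusted p was 0.985, 0.987 and 0.9996, in that order. These sizes moved by more than 1.5 times when single rats were left out. Without control rat 5 the difference was 242 millionths for Sostdc1, 85.1 for F5, 1.78 for Kl and 36.3 for Ttr, and without DMHF rat 4 it was 196, 116, 4.22 and 36.5, in the same order. With quantile normalization the difference of F5 was 68.0.

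Of the channels, Kcne2 encodes a potassium channel subunit of the apical membrane and Aqp1 the water channel of that membrane. The brightest Kcne2 probe set (1369322_at) stood at 9.80, 14.23, -12.5, -6.70 and -4.85 millionths in control rats 1 to 5 and at 6.33, 8.13, 1.51, 20.4 and -8.62 in DMHF rats 1 to 5. Its difference was 5.56 millionths (SE 6.62), or 0.505 SD within groups, with overlapping groups. The other Kcne2 probe sets, 1386770_x_at and 1394343_s_at, differed by 1.87 (SE 2.46) and 1.15 millionths (SE 0.649), or 0.460 and 1.13 SD. The mean of 1394343_s_at was 5.67 on the deposited scale, where the lowest deposited value was 5.252. Whether a probe set this dim measures the transcript was not tested. The suffixes _x_at and _s_at mark probe sets whose probes can match more than 1 transcript. Without DMHF rat 4 the difference of 1369322_at was 1.84 millionths and without control rat 3 it was 2.44, while leaving out control rat 2 or DMHF rat 5 raised it to 9.12 and 9.10.

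The brighter Aqp1 probe set (1387651_at) stood at -4.82, 11.2, 6.19, -4.27 and -8.35 millionths in control rats 1 to 5 and at -1.05, 16.8, 10.9, 11.6 and -11.6 in DMHF rats 1 to 5. The other one (1369625_at) stood at 4.72, 48.7, -19.1, -24.2 and -10.1 in control rats and at 52.3, 39.9, 6.83, 57.9 and -26.3 in DMHF rats. On both, DMHF rat 5 was the lowest of all 10 rats, unlike for Ttr. Their differences were 5.31 millionths (SE 6.04), or 0.529 SD within groups, and 26.1 (SE 19.6), or 0.804 SD. Over single rats left out they ran from 2.44 (without DMHF rat 2) to 9.54 millionths and from 18.2 to 39.2, the higher values both without DMHF rat 5. The lowest limma adjusted p of the 5 probe sets of Kcne2 and Aqp1 was 0.946.

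Otx2, the homeodomain transcription factor that specifies and maintains the choroid plexus, was measured by 2 probe sets with an r of -0.274 between them over the rats. The brighter (1375465_at) stood at 53.6, 52.5, -114, 3.66 and 4.11 millionths in control rats 1 to 5 and at 334, -97.5, -3.43, 278 and 18.4 in DMHF rats 1 to 5. DMHF rats 1 and 4 stood far above all others, while the other 3 DMHF rats lay within the control range. The difference was 106 millionths (SE 85.4), or 0.745 SD within groups (limma adjusted p = 0.992), and the SD was 189 millionths in DMHF against 68.3 in control. Without DMHF rat 1 the difference was 48.8 millionths, and without DMHF rat 4 it was 62.8. With quantile normalization it was 50.4. The dimmer probe set (1375394_at) was the only marker probe set with a lower mean in DMHF, by -0.859 millionths (SE 3.84), or -0.135 SD. Its sign turned when any of 4 rats was left out, with values from -2.73 to 1.72.

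Most of the markers were high in the same rats and low in the same rats. Taking the brightest probe set of each of the 8 genes, 27 of 28 pairs correlated positively over the 10 rats, with a median Pearson's r of 0.736 (range -0.0664 to 0.970). Over all 101054436 pairs of the 14217 genes the median r was 0.00710 and 50.7% of pairs were positive. The pairs share rats and arrays, so they are a description and carry no p. The highest pair was Ttr with Sostdc1, and the lowest was Otx2 with Aqp1. Folr1 with Sostdc1 stood at 0.932, Sostdc1 with F5 at 0.936, and Kl with F5 at 0.871. Over all 12 probe sets, 48 of 66 pairs were positive, with a median of 0.508.

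**Figure D2:**
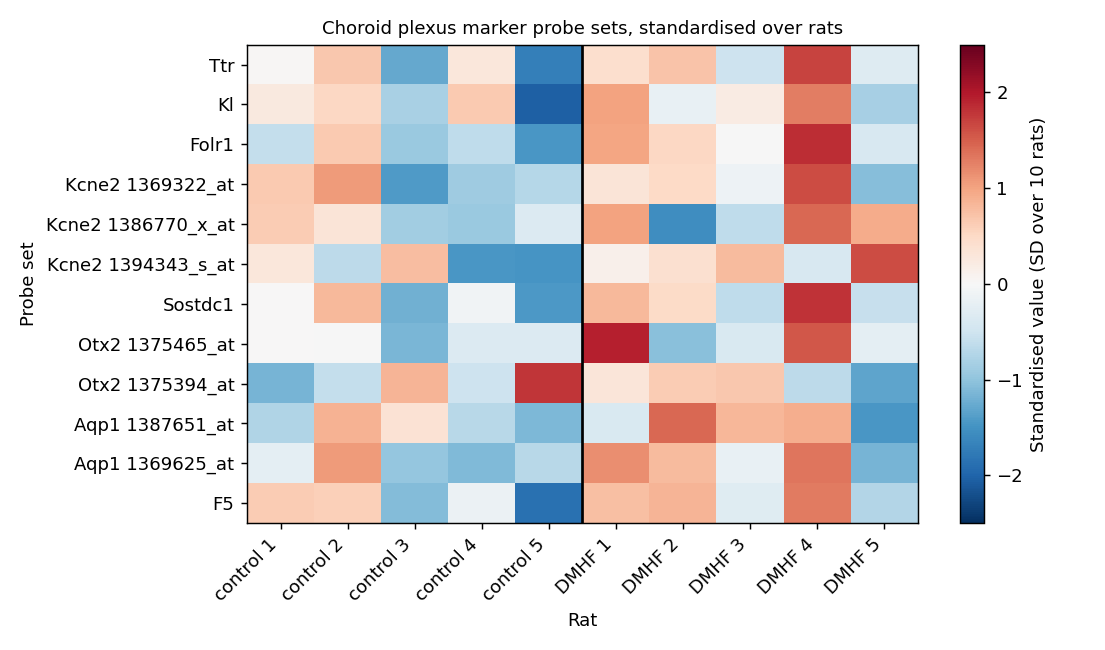
Standardised values (colour, in SD over the 10 rats) of the 12 marker probe sets (rows) in each rat (columns, control left of the line, DMHF right of it). Columns for control rats 3 and 5 and DMHF rat 5 are mostly blue and the column for DMHF rat 4 is mostly red, while the dimmer Otx2 row and the 1394343_s_at row of Kcne2 do not follow.

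The order of the rats was thus shared by most markers. Averaged over the 8 genes, the standardised level was 0.0270, 0.647, -0.939, -0.233 and -1.33 SD in control rats 1 to 5, and 0.734, 0.406, -0.113, 1.503 and -0.700 in DMHF rats 1 to 5. In DMHF rat 4 all 8 of 8 genes stood above their own mean over rats, and in control rat 5 and DMHF rat 5, 0 of 8 did. DMHF rat 4 was the highest rat for 8 of 12 probe sets and control rat 5 the lowest for 6 of 12. The averages ran from -1.33 to 0.647 in control and from -0.700 to 1.503 in DMHF rats, so that the groups overlapped.

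Each probe set of the array was then correlated with Ttr over the 10 rats, so that the markers could be read against the rest of the transcriptome. Sostdc1 had the second highest r of 31041 probe sets, at 0.970 (Spearman's rho 0.939), and F5 ranked 8 at 0.938 (rho 0.927). Folr1 ranked 34 at 0.885 (rho 0.830), Kl ranked 92 at 0.853 (rho 0.733) and Kcne2 (1369322_at) ranked 228 at 0.797 (rho 0.745). Aqp1 stood at 0.732 (1369625_at, rho 0.685) and 0.470 (1387651_at, rho 0.661). The probe sets of Otx2 lay on opposite sides, at 0.550 (1375465_at, rho 0.430) and -0.574 (1375394_at, rho -0.479), and the dimmer probe sets of Kcne2 stood at 0.381 (1386770_x_at, rho 0.236) and -0.0669 (1394343_s_at, rho -0.176). Over all 31041 probe sets the median r was 0.0419 and the 99th percentile 0.772, which 5 of the 11 marker probe sets exceeded.

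None of these correlations passed the adjustment over all probe sets. The two-sided permutation p (100000 permutations) of Pearson's r was 5.00e-05 for Sostdc1, 8.00e-05 for F5, 0.000720 for Folr1, 0.00178 for Kl, 0.00543 for Kcne2 1369322_at and 0.0145 for Aqp1 1369625_at. Adjusted over the 31041 relations computed, these were 0.172, 0.191, 0.380, 0.395, 0.515 and 0.586. The p of Spearman's rho for the same 6 was 0.000170, 0.000330, 0.00477, 0.0199, 0.0174 and 0.0345, with permutation-adjusted values of 0.388, 0.388, 0.587, 0.734, 0.722 and 0.743. The other 5 probe sets had an unadjusted permutation p of 0.0830 (Otx2 1375394_at), 0.0981 (Otx2 1375465_at), 0.173 (Aqp1 1387651_at), 0.277 and 0.852 (Kcne2 1386770_x_at and 1394343_s_at) for r, each with an adjusted p of at least 0.770. At an unadjusted permutation p under 0.05, 6 of 11 marker probe sets had a positive r, against 4.15% of all probe sets, and 0 a negative one, against 2.82%. At the adjusted threshold the permutation test called 0 of 31041 probe sets (0% of all), and 2161 had an unadjusted p under 0.05.

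**Figure D3:**
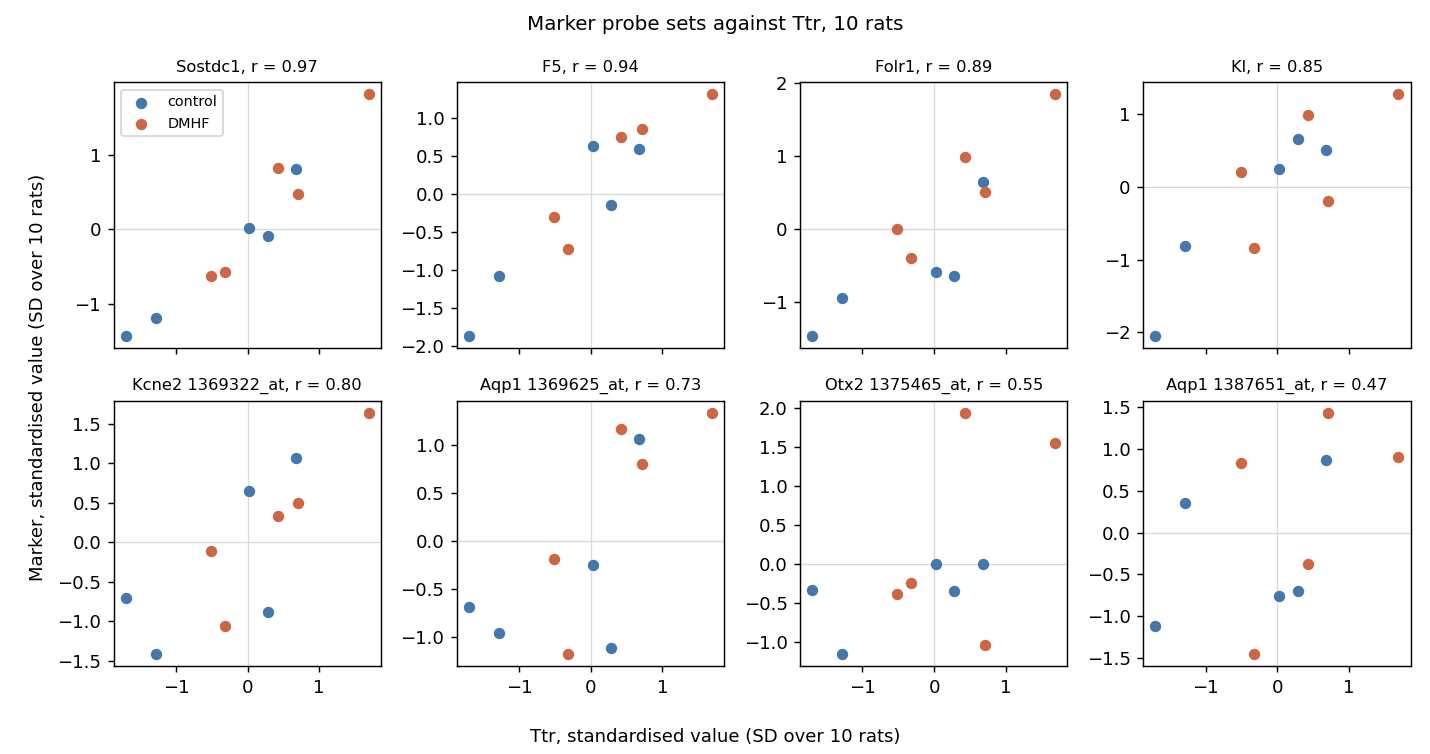
Standardised level of 8 marker probe sets (y axis, SD over 10 rats, scaled by panel) against that of Ttr (x axis, same unit), 1 point per rat, control in blue and DMHF in orange. Sostdc1 and F5 lie close to a line through rats of both groups, Folr1 and Kl more loosely, and the lower row scatters more.

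Since control rat 5 and DMHF rat 4 lay farthest from the Ttr median, r was computed again without both. It was 0.940 for Sostdc1, 0.875 for F5, 0.743 for Kcne2 1369322_at, 0.708 for Folr1, 0.679 for Aqp1 1369625_at and 0.640 for Kl (8 rats). It fell to 0.387 for Otx2 1375465_at and to 0.169 for Aqp1 1387651_at. With deviations from the group means in place of the values, r stayed at 0.964 for Sostdc1, 0.927 for F5, 0.879 for Folr1, 0.838 for Kl, 0.782 for Kcne2 1369322_at and 0.677 for Aqp1 1369625_at. The difference between the treatment groups is taken out of these last values.

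**Figure D4:**
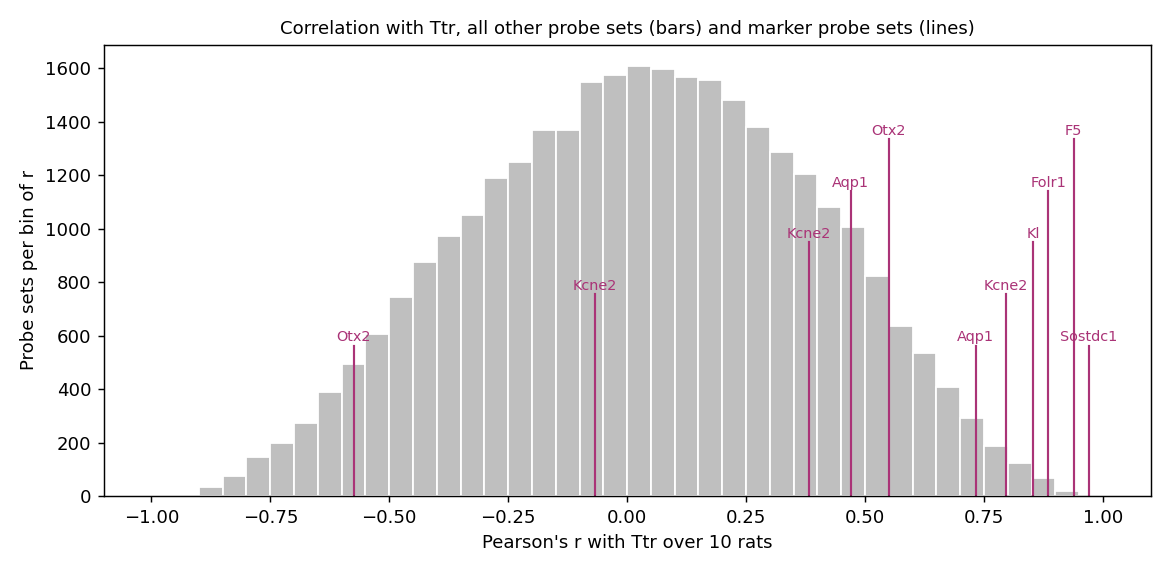
Number of probe sets (y axis) by Pearson's r with Ttr over 10 rats (x axis, bins of 0.05), with vertical lines for the 11 marker probe sets (line heights only separate the names). Lines for Sostdc1, F5, Folr1, Kl and 1 probe set of Kcne2 lie beyond the 99th percentile of 0.772, and 1 line each of Otx2 and Kcne2 lies below 0.

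Probe sets assigned to the same gene did not all follow one another over the 10 rats, and the 5 such pairs were computed. The Aqp1 pair had an r of 0.641 (permutation p = 0.0495, adjusted over the 5 pairs 0.247) and a rho of 0.709 (permutation p = 0.0262, adjusted 0.131). Without the 2 rats farthest from the median it was 0.759. The Otx2 pair had an r of -0.274 (permutation p = 0.434, adjusted 0.723) and a rho of -0.588 (permutation p = 0.0800, adjusted 0.200), and -0.359 without the 2 farthest rats. For Kcne2, 1369322_at stood at 0.450 with 1386770_x_at and at -0.167 with 1394343_s_at, and the latter 2 at 0.123 with each other (permutation p = 0.188, 0.641 and 0.734). Values of the dimmer Otx2 and Kcne2 probe sets enter none of the comparisons with gene lists.

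The 10 other genes whose level followed Ttr most closely, taken by the brightest probe set of each gene, were Mdk, Mfrp, Enpp2, Arhgap22, Sdc4, Spint2, Oxt, Fev, Calml4 and Ddb2. Of these, 4 of 10 were on a list of 40 further choroid plexus genes: Mfrp, a membrane frizzled-related protein, Enpp2, the autotaxin that makes lysophosphatidic acid, Spint2, a serine protease inhibitor, and Calml4, a calmodulin-like protein. Mdk, the heparin-binding growth factor midkine, had the highest r of all 31041 probe sets, at 0.972 (rho 0.976, r 0.944 without the 2 farthest rats). Mfrp stood at 0.970 (rho 0.976, 0.929 without them) and Enpp2 at 0.954 (rho 0.927, 0.933 without them). The permutation p of r was 1e-05 for Mdk and Mfrp, the smallest that these permutations can give, with an adjusted p of 0.103, and 5.00e-05 for Enpp2 (adjusted p = 0.172). Counting all orders of the rats in place of 100000 draws, an alternative added after the data had been seen, gave an exact adjusted p of 0.0556 for Mdk and Mfrp, 0.0727 for Sostdc1 and 0.111 for Enpp2 and F5.

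Sdc4, a heparan sulfate proteoglycan, stood at 0.936, Spint2 at 0.931 and Calml4 at 0.916. Oxt, the oxytocin precursor made by hypothalamic neurons and a gene of the hippocampal, hypothalamic and pituitary list, stood at 0.927 (rho 0.830, 0.871 without the 2 farthest rats). Arhgap22 was at 0.939, Fev, a transcription factor of serotonin neurons, at 0.926, and Ddb2, a DNA damage-binding protein, at 0.915. All 10 had a higher mean in DMHF, by 0.507 to 1.34 SD within groups, where 53% of all genes had a higher mean. None of the 10 passed the test by limma (adjusted p from 0.931 to 0.9996). They were picked for following Ttr in these same rats, and Ttr itself had a higher mean in DMHF. Their shared direction is therefore no separate evidence. The probe sets of Arhgap22, Sdc4, Fev and Ddb2 had differences of 1.02 to 2.40 millionths, smaller than the 15.2 millionths between array medians. With all arrays shifted to a common median their r became -0.301, 0.0420, 0.221 and -0.370, whereas that of Mdk, Mfrp and Enpp2 was 0.964, 0.969 and 0.948. The median SD of a probe set between arrays was only 2.20 millionths, so the shift can by itself change r for such probe sets. Their lower r therefore does not show an offset in the deposited values.

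A wider list of choroid plexus genes was read in the same way. Of its 40 genes, 33 were measured, and 15 of 33 correlated positively with Ttr at an unadjusted permutation p under 0.05, against 4.71% of all genes, while 1 correlated negatively and 0 passed the adjustment. The median r of the list was 0.555, against 0.0556 over all 14216 other genes. In the comparison of DMHF with control 27 of 33 had a higher mean, against 53% of all genes, and 0 were called. The 4 with the smallest p in that comparison were Kcnj13, Tmem72, Htr2c and Cldn2. Cldn2, a tight junction protein that forms cation pores, differed by 46.0 millionths (SE 26.6), or 1.04 SD within groups, but by -3.83 with quantile normalization, and Htr2c, a serotonin receptor of high level in choroid plexus, by 11.5 (SE 6.31), or 1.10 SD. They correlated with Ttr at 0.899 (rho 0.879) and 0.874 (rho 0.867), with a permutation p of 0.000490 and 0.00101 (adjusted p = 0.380 for both). Tmem72 differed by 8.22 (SE 4.38), or 1.13 SD, and by 4.5004 without control rat 5. Kcnj13, a potassium channel of the apical membrane, had a lower mean in DMHF, by -7.66 (SE 3.86), or -1.20 SD, and its r with Ttr was 0.123. Control rat 1 stood alone on Kcnj13, at 14.3 millionths where the next control was at -2.06, and without it the difference was -4.10.

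**Figure D5:**
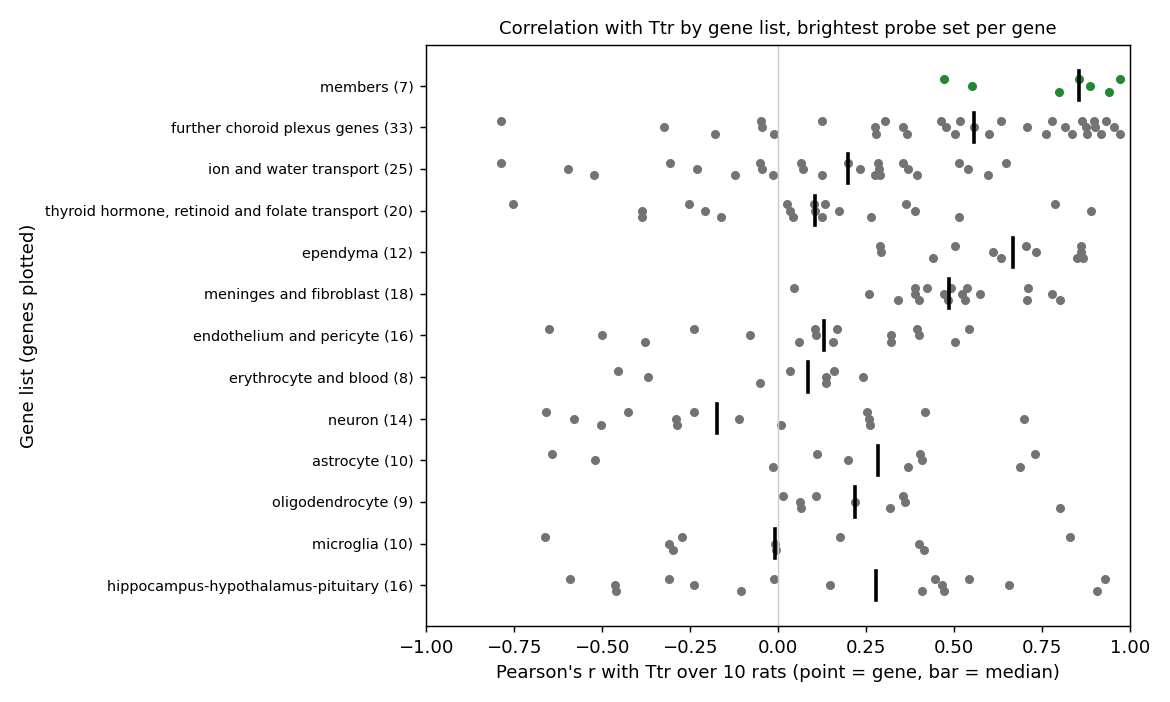
Pearson's r with Ttr over 10 rats (x axis) for each measured gene (points) of the 7 markers other than Ttr (members) and of 12 gene lists (rows, with the number of genes plotted), with the list median as a black bar. Medians of the markers, the further choroid plexus genes, the ependyma list and the meninges list lie at 0.853, 0.555, 0.668 and 0.486, and the other 9 lie between -0.175 and 0.282.

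Genes of fluid secretion at large, many of them active in other brain cells, were described by 2 further lists. In that of ion and water transport, 25 of 29 genes were measured. In DMHF 10 had a higher and 15 a lower mean, against 53% and 47% of all genes, and 0 were called. The median r with Ttr was 0.199, against 0.0556 over all other genes. At an unadjusted permutation p under 0.05, 1 of 25 had a positive r, against 4.71% of all genes. The smallest p belonged to Car14, a membrane carbonic anhydrase, at -18.1 millionths (SE 7.10), or -1.53 SD within groups (limma adjusted p = 0.876), followed by Kcnj13, by the potassium-chloride cotransporter Slc12a4 at 0.992 (SE 0.504) and by the bicarbonate transporter Slc4a7 at -0.508 (SE 0.339). In the list of thyroid hormone, retinoid and folate transport, 20 of 24 genes were measured. Of these 10 were higher and 10 lower, against the same 53% and 47%, with 0 called and a median r of 0.104. Its smallest p belonged to Slc46a1, the proton-coupled folate transporter that works beside Folr1, at 1.29 millionths (SE 0.364), or 2.62 SD (limma adjusted p = 0.776). This is smaller than the 15.2 millionths between array medians, and with a common array median its unadjusted limma p went from 0.00656 to 0.673. The shift to that median is larger than the spread of this probe set within groups and can by itself raise p. The second p therefore does not decide whether the deposited difference holds. Rbp4, the retinol-binding protein that transthyretin carries, stood at -11.0 (SE 3.12), or -2.13 SD (limma adjusted p = 0.780), opposite in sign to Ttr. The retinoic acid-binding protein Crabp1 stood at 3.23 (SE 1.09), with an unadjusted limma p of 0.0161 that was 0.207 with a common array median, and the thyroid hormone deiodinase Dio2 at -8.47 (SE 4.14). The same limit on the shift applies to Crabp1. None of these genes passed the test.

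Markers of the ciliated ependyma, which lines the ventricles beside the choroid plexus, stood high and low in much the same rats as the choroid plexus markers. Of 20 listed genes 12 were measured, all 12 had a positive r with Ttr (median 0.668), against 55.5% of all genes, and 6 of 12 had an unadjusted permutation p under 0.05, against the 4.71% of all genes. Foxj1, the regulator of motile cilia, stood at 0.865 (rho 0.867), and the ciliary genes Tekt2, Drc12 and Tmem212 at 0.860, 0.859 and 0.731. With a common array median r was 0.0166 for Tekt2, 0.754 for Foxj1, 0.806 for Drc12 and 0.689 for Tmem212. In DMHF against control 11 of 12 had a higher mean, against 53% of all genes, and 0 were called, with 3 higher at an unadjusted limma p under 0.05, against 2.98%. Tekt2 differed by 4.32 millionths (SE 1.49), with an unadjusted limma p of 0.0178 that was 0.0896 with a common array median. For a probe set that varies this little, the shift to that median can by itself change both p and r. Foxj1 differed by 14.25 (SE 6.20), Tmem212 by 42.1 (SE 18.3) and Drc12 by 20.2 (SE 10.2). The mean standardised level of the ependyma list ran from -1.10 to 0.462 SD in control rats and from -0.110 to 0.938 in DMHF rats, lowest in control rats 3 and 5 and highest in DMHF rat 4, as for the markers.

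In the meninges and fibroblast list 18 of 18 measured genes had a positive r, against 55.5% of all genes, with a median of 0.486, and 4 of 18 had an unadjusted permutation p under 0.05, against 4.71%. Of its genes 3 stand on another list too. Igf2 and Igfbp2, which are among the 4, are also on the list of further choroid plexus genes. Between the groups 13 of 18 had a lower mean in DMHF, against 47% of all genes, and 0 were called. Among them were Ptgds, a prostaglandin synthase of the meninges, at -12.7 millionths (SE 11.6), Lum at -8.93 (SE 9.63), Slc47a1 at -11.2 (SE 13.2) and Dcn at -12.7 (SE 17.6). Single rats moved each of these by more than 1.5 times. Without DMHF rat 3 they were -8.20, -3.39, 0.0672 and -2.62, in that order. Ptgds was -6.35 without DMHF rat 1, -20.0 without DMHF rat 4 and -19.7 without control rat 3, and Lum was -2.71 without control rat 1. Its mean standardised level ran from -0.992 to 1.30 SD in control and from -1.28 to 0.999 in DMHF rats. The remaining lists had a median r of 0.131 for endothelium and pericyte (16 genes), 0.0850 for blood (8), -0.175 for neurons (14), 0.282 for astrocytes (10), 0.217 for oligodendrocytes (9, all with a positive r), -0.00800 for microglia (10) and 0.279 for hippocampal, hypothalamic and pituitary genes (16). The averages of this last list did not overlap, at -0.518 to 0.0197 SD in control and 0.0418 to 0.513 in DMHF rats. Of single probe sets, 0.535% of all had every DMHF rat above every control rat, and no such share was computed for averages of lists. In it 12 of 16 genes were higher and 4 lower, where 53% of all genes were higher, and 0 were called. Its smallest p belonged to Cga and Tshb, the subunits of pituitary thyrotropin, at 2.58 and 1.98 SD (limma adjusted p = 0.730 and 0.815), and to Pmch, a hypothalamic neuropeptide precursor, at 1.32 SD. The markers and all lists, this one included, were chosen with earlier results of these data known. The directions given for them are therefore descriptions and no support. No detection limit was applied to the deposited values, the lowest of which was 5.252. The dimmest measured genes of these lists had means of 5.76 to 8.58 on that scale, list by list. How much ventricular lining or neighbouring tissue each piece of brain held was not measured, and its part in the levels of the markers was not tested.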

How the data were processed

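Brain RNA of 10 rats (1 array each, 5 per group by the labels) was measured on Affymetrix 3' arrays from 100 ng of total RNA. The authors deposited 1 normalized log2 value per probe set and array, in R 2.7.2 per the submitters' processing notes. They normalized the arrays by a method not given in the sources used here. From the values, arrays differ by millionths of a unit, so sizes are differences on the deposited scale. No read depth applies, and the number of arrays limits the precision. The labels call the samples biological replicates.

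Of 31099 deposited probe sets, 57 controls were left out. The platform annotation gave 20826 of the 31042 tested a single gene, 436 several and 9780 none, and a probe set naming several genes, Ttr among them, was not used. Groups were compared with limma 3.58.1 (lmFit and eBayes, R 4.3.3) without further normalization, with Benjamini-Hochberg adjustment over all 31042 probe sets. An exact two-sided permutation test over all assignments of rats cannot give a p below 0.00794. Correlations used the brightest Ttr probe set, 100000 two-sided permutations and adjustment over 31041 probe sets.

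Members and gene lists were chosen with earlier results of these data known. The rule for named genes took all members, every called gene and up to 4 genes with the smallest limma p of each list, and the 10 other genes with the highest r with Ttr (symbols starting LOC or RGD passed over). Genes are named here only for the lists of choroid plexus, transport, ependyma, meninges and the hippocampal, hypothalamic and pituitary genes. Both procedures were tested on simulated data: limma recovered 10%, 68%, 100% and 96% of shifts of 2, 4, 6 and 8 SD, and the correlation test 2%, 4%, 38% and 96% of true correlations of 0.7, 0.8, 0.9 and 0.97. Each simulation planted many such probe sets at once, and recovery after adjustment rises with their number. The shares therefore need not hold for these data, where Sostdc1 had an r of 0.970 and a permutation-adjusted p of 0.172. Alternatives were a replicate block, quantile normalization, a common array median, brighter probe sets, another variance model, exact tests, Spearman's rho and leaving out each array.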

Additional observations from a re-analysis of the deposited data

Results flagged for a closer look

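Among 82 groups of 5 rats examined for a single rat standing apart (Dixon's criterion), 4 did, where chance gives about 1 in 20 groups. None of these was among the 24 groups of the choroid plexus markers. Kcnj13 stood at 14.254 millionths of a log2 unit from the control mean in control rat 1, with the nearest control at -2.06. Slc46a1 stood at 0.2002 in DMHF rat 3, with the nearest DMHF rat at 1.27. Ptgds stood at -27.758 in control rat 3, with the nearest control at -0.428. Slc47a1 stood at -56.3906 in DMHF rat 3, with the nearest DMHF rat at -6.75.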

How the results depend on the processing

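The number of choroid plexus marker probe sets called was 0 under every alternative run. Over all probe sets 13 were called with quantile normalization, which left 10076 to test (all 13 then held a single value within each group, so their own residual spread was 0), and 1 (Irgq, adjusted p = 0.0386 by limma) without DMHF rat 2, so the range over left-out rats was 0 to 1. With quantile normalization, and with the brighter probe sets alone, 5 marker probe sets could be compared and all 5 had a higher mean in DMHF. Over left-out rats the count with a higher mean ran from 11 to 12 of 12 and the median marker difference from 0.472 to 0.962 within-group SD. At an unadjusted limma p under 0.05 the split of higher to lower was 1002 to 698 as deposited, 450 to 154 with quantile normalization and 208 to 333 with a common array median.

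Of the single genes, Otx2 1375394_at changed sign, at 0.322 without control rat 3, 1.72 without control rat 5, 0.0190 without DMHF rat 4 and 1.01 without DMHF rat 5 (range -2.73 to 1.72). Cldn2 stood at -3.83 with quantile normalization, and Slc47a1 at 0.0672 without DMHF rat 3 (range -17.2 to 0.0672). With a common array median, r with Ttr was -0.276 for Kcne2 1386770_x_at, -0.317 for Kcnj13, -0.301 for Arhgap22 and -0.370 for Ddb2. For the other marker probe sets it was 0.970 (Sostdc1), 0.932 (F5), 0.860 (Folr1), 0.793 (Kl), 0.687 and 0.200 (Aqp1 1369625_at and 1387651_at). It was 0.647 and -0.693 for Kcne2 1369322_at and 1394343_s_at, and 0.540 and -0.633 for Otx2 1375465_at and 1375394_at. The group differences of Kl, Otx2 1375394_at, Aqp1 1387651_at and all Kcne2 probe sets were smaller than the 15.2 millionths between array medians. The median SD of a probe set between arrays was 2.20 millionths, so the shift to a common median can by itself change values of probe sets that vary little. On the values as deposited, r of Kcne2 1394343_s_at with Ttr ran from -0.549 to 0.0635 over left-out rats. The causes were not tested. Over left-out rats r stayed at 0.954 to 0.979 for Sostdc1 and 0.817 to 0.936 for Folr1.

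With the replicate number as a block, limma called 0 probe sets (1280 higher and 937 lower at an unadjusted p under 0.05) and 11 of 12 marker probe sets had a higher mean. Of the 12, only Ttr and F5 were higher in DMHF in 5 of 5 same-numbered pairs. Kcne2 1369322_at and Otx2 1375394_at were higher in 2 of 5, Aqp1 1369625_at in 3 and the others in 4. The share of all probe sets at 5 of 5 is not given here. Under the block the unadjusted limma p was 0.0235 for Ttr, 0.0237 for F5 and 0.0297 for Folr1 (adjusted p = 0.634, 0.635 and 0.653). For the other marker probe sets it ran from 0.0672 (Sostdc1) to 0.855 (Otx2 1375394_at). Same-numbered control and DMHF arrays had deviation correlations of 0.222, 0.029, 0.281, 0.088 and 0.029, not all above 0.1, so the numbers were not taken to pair the rats. Of the 10 arrays, 6 correlated best with their own number, a hint from the data and not from the design. The number that chance would give was not computed, and whether the replicate number marks a shared batch was not tested. In the block residuals r with Ttr was 0.934 for F5, 0.817 for Sostdc1, 0.714 for Kl, 0.685 for Folr1 and 0.571 for Kcne2 1369322_at. It was 0.283 for Aqp1 1369625_at, 0.112 for Aqp1 1387651_at, 0.149 for Foxj1, 0.211 for Tmem212, 0.221 for Htr2c and 0.146 for Sdc4, and it was higher than as deposited for Kcne2 1386770_x_at (0.917) and Kcne2 1394343_s_at (0.548). Quantile normalization left Ttr at a single value on all arrays, so no correlation could be given with it.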
